A study of Homo sapiens with 27 samples.

Results

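The 45 genes described here serve mitosis and the entry into it from G2: cyclins and their kinase partners, mitotic kinases, spindle checkpoint and ubiquitin ligase factors, centromere and kinetochore proteins, spindle motors and cytokinesis factors. They were taken by symbol from a named list of mitosis genes. All 45 were found among the 67130 genes of each of the 2 count tables, and all 45 passed the filter on low counts in both lines. Their mRNA was measured by RNA sequencing in 27 libraries of human cell lines, with 3 libraries in each of 9 groups. Every group, controls included, carried a knockout of ARID1A, which encodes a DNA-binding subunit of the BAF (SWI/SNF) chromatin remodeller. In Huh7, a line from a liver carcinoma, the groups were ARID1A V2084D with a knockdown of STUB1 (called shSTUB1 below), V2084D without the knockdown, and wild-type ARID1A (WT). STUB1 is a ubiquitin ligase that acts together with chaperones. In 293T, an embryonic kidney line, the groups were K2025E, G2087R, G2087E and V2084D, which are missense forms of the ARID1A C-terminus, then WT, and the knockout with no ARID1A put back (KO). The ARID1A forms carried a Flag tag and were expressed stably from lentivirus. The labels do not say whether a knockout line was 1 clone or whether replicates were separate cultures, so that the p-values below measure only the spread between these libraries, which may be technical. The Huh7 label had no group of knockout cells alone.

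Genes of G2 and mitosis are transcribed in a wave late in the cell cycle. The MuvB complex, with B-MYB and FOXM1, binds many of their promoters at the cell cycle homology region (CHR), and in resting cells the DREAM complex represses them through the same element. Cyclin B with CDK1 drives entry into mitosis, the kinetochore and the spindle checkpoint hold the chromosomes until all are attached, and the anaphase-promoting complex (APC/C) then destroys cyclin B and securin so that the chromatids part and the cell divides. 293T and Huh7 are lines that divide continuously.

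Library totals ran from 33429483 to 55539529 counts for 293T and from 59124374 to 79915177 for Huh7, and levels are given in CPM (library-scaled counts per 1000000, with TMM). ARID1A mRNA checked the labels only in part: in 293T it was 5690, 9285 and 62916 CPM in the WT libraries, 291, 324 and 68169 CPM in the G2087R libraries and 117 to 193 CPM in the KO libraries, so 2 libraries labelled G2087R were near the KO level. In the V2084D libraries of 293T ARID1A was 52340.5, 42656 and 114835 CPM. The G2087E libraries had 51818, 43788 and 84609 CPM, and the K2025E libraries 17585, 13373 and 21658 CPM. In the libraries labelled Huh7, ARID1A was 189 to 351 CPM in shSTUB1, 216 to 271 CPM in V2084D and 342 to 400 CPM in WT. All of these were far below the lowest WT library of 293T (5690 CPM), and nearer to its KO and low G2087R libraries. ARID1A mRNA thus did not show expression of the added forms in the libraries labelled Huh7. STUB1 was 70.1, 84.1 and 67.2 CPM in shSTUB1 libraries, against 251, 248 and 296 CPM in V2084D libraries. Of 20 liver markers, 2 reached 10 CPM in the libraries labelled Huh7, and ALB, the albumin gene, averaged 0.631 CPM there and 2.30 CPM in 293T, while 8 of 12 markers of 293 cells reached 10 CPM in each line, 7 of them in both. The libraries labelled Huh7 thus lacked the defining transcripts of liver cells. Of 10 fibroblast and blood markers, 1 reached 10 CPM in each line. Replicate 3 of every 293T group stood apart on the first principal component, the axis of largest spread over the most variable genes (11.7% of the variance). It lay at 14.7 to 46.5 there, and replicates 1 and 2 at -52.4 to 1.01. Replicate 3 also had the most ARID1A in each 293T group with ARID1A put back. No batch is labelled, and the part of this was not tested. In 293T, WT replicate 3 and K2025E replicate 3 had the highest summed CPM of the 45 genes, at 9151 and 8253 CPM, and G2087R replicate 2 the lowest, at 5225 CPM. WT replicate 1 and K2025E replicates 2 and 3 stood apart in another way: across all genes, their deviations from the gene means correlated with transcript length at a Spearman rho of -0.30, -0.36 and -0.35 (22664 genes in 293T, which are not independent replicates), against -0.04 to 0.18 in the other 293T libraries and -0.19 to 0.06 in the Huh7 libraries.

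Per kilobase of exon, the same genes stood at the top and the bottom of the order of levels in both lines as labelled. CKS2, a small CDK-binding protein, averaged 154 CPM per kb over the Huh7 libraries and 146 CPM per kb over the 293T libraries, the highest of the 45 in each. CDC20, the mitotic activator of the APC/C, averaged 133 CPM per kb in Huh7 and 136 CPM per kb in 293T. KIF18A, the kinesin that damps chromosome movement at the metaphase plate, was the lowest, at 7.22 CPM per kb in Huh7 and 5.94 CPM per kb in 293T. No test was made between the lines at this scale, since level and line go together with library set. Over the 9 Huh7 libraries, MKI67, the Ki-67 proliferation marker that coats mitotic chromosomes, had the widest range, with a highest level 4.48 times the lowest. TPX2, which targets Aurora A to spindle microtubules, had the narrowest, at 1.10 times.

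The comparison of V2084D with WT in the libraries labelled Huh7 asks whether the mutant form acts on these genes as the wild-type form does. As given above, ARID1A mRNA did not show expression of the added form in either group. The genes split: 15 of 45 rose and 20 of 45 fell in V2084D, against 22% and 20% of all 22510 genes tested that rose and fell. NDC80 and NUF2 of the outer kinetochore, with the checkpoint genes MAD2L1 and TTK, were among those that rose. AURKB and INCENP of the chromosomal passenger complex, with PLK1, AURKA and CCNB1, were among those that fell. The median log2 difference over the 45 was -0.10, and it was 0.03 over all genes tested but -0.06 over the genes at or above the level of the least abundant of the 45. Libraries of the 2 groups did not overlap for 15 genes that were higher and 22 that were lower in V2084D, against 28.5% and 26.9% of all genes. In bulk RNA, fewer cells in G2 and mitosis and less of a transcript per cell cannot be told apart.

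Among the kinetochore genes, both members of the Ndc80 complex that are in the list rose. NDC80 (ENSG00000080986, chr18:2571511-2616635 on GRCh38), the subunit that grips microtubules, had 81.0, 87.3 and 72.1 CPM in shSTUB1 libraries, 65.3, 72.9 and 71.9 CPM in V2084D libraries and 40.5, 40.1 and 34.5 CPM in WT libraries. Its V2084D libraries all lay above its WT libraries (log2 difference 0.87, SE 0.09, edgeR adjusted p = 3.4e-05). NUF2 (ENSG00000143228, chr1:163266576-163355764), its coiled-coil partner, had 81.2, 88.0 and 70.7 CPM in shSTUB1 libraries, 77.9, 82.1 and 84.3 CPM in V2084D libraries and 46.5, 49.4 and 39.4 CPM in WT libraries. The V2084D and WT libraries of NUF2 did not overlap either (log2 difference 0.85, SE 0.10, edgeR adjusted p = 7.65e-05). The remaining 2 subunits, outside the 45 and looked up after these values were seen, did not move as a pair. SPC24 averaged 55.4 CPM in V2084D and 41.3 CPM in WT and rose (log2 difference 0.43, SE 0.09, edgeR adjusted p = 0.00309). SPC25 averaged 13.1 CPM in V2084D and 26.7 CPM in WT and fell (log2 difference -1.03, SE 0.15, edgeR adjusted p = 0.000328). Of the other centromere genes in the list, CENPA, the centromeric histone H3, and CENPE, the kinetochore kinesin, fell, with log2 differences of -0.62 and -0.80. CENPF, a large kinetochore protein, had a log2 difference of -0.35 and did not pass the test. CENPF was the most abundant transcript of this role, with 245, 176 and 278 CPM in shSTUB1 libraries, 234, 254 and 216 CPM in V2084D libraries and 307, 306 and 286 CPM in WT libraries.

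The promoters of 6 of the 45 genes are shown here because these genes had full statistics in the most comparisons and hold a CHR element near the start. RefSeq promoter windows (GRCh38.p14, 250 bases before to 50 after the start) were found for 38 of the 45. Each line gives the gene, the coordinates and strand, and the 190 bases that begin 140 bases before the start and end 50 bases into the transcript, written 5′ to 3′ along the gene. Capitals mark the CHR letters TTTGAA or TTCGAA and the CCAAT box that NF-Y binds, on either strand, so that TTCAAA and ATTGG are the same motifs read from the other strand.
INCENP, chr11:62123871-62124060, plus strand: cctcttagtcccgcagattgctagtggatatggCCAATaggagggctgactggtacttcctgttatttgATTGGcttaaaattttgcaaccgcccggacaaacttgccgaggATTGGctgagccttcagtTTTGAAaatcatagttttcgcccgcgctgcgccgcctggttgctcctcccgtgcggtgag
NDC80, chr18:2571417-2571606, plus strand: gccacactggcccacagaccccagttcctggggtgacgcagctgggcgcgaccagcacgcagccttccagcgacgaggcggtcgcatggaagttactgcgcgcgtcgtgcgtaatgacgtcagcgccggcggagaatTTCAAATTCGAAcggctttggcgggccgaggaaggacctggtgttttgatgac
NUF2, chr1:163321814-163322003, plus strand: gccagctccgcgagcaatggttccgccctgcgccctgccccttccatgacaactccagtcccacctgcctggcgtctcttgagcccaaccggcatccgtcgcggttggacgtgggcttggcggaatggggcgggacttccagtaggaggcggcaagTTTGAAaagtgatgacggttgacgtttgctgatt
MAD2L1, chr4:120066799-120066988, minus strand: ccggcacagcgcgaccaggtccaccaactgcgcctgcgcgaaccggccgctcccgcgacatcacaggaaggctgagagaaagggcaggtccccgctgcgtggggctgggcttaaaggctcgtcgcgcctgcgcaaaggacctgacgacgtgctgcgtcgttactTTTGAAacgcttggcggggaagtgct
KIF18A, chr11:28108107-28108296, minus strand: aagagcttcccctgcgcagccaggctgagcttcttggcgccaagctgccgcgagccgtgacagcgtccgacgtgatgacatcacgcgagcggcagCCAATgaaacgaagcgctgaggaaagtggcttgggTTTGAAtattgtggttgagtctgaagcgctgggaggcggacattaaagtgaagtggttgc
CKS1B, chr1:154974541-154974730, plus strand: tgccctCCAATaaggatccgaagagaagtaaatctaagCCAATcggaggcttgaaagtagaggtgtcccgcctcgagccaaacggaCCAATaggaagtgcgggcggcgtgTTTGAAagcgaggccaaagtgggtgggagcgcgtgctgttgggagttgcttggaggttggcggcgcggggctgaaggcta
Across the list, TTTGAA or TTCGAA lay between 50 bases before and 50 after the start for 26 of the 38 genes with a window (68.4%). The share was 6.24% over 27305 symbols with 35116 windows, and a gene counted if any of its windows matched. CCAAT, searched in the whole window on both strands, was present in 32 of 38 (84.2%), against 39.7% of all symbols. The CHR letters were found near the start of 9 of the 13 genes with a window that rose in V2084D, of 11 of 17 that fell and of 6 of 8 that did neither. CCAAT was present in 10 of those 13, 15 of 17 and 7 of 8. Of the 6 genes printed above, which were chosen to hold the element, INCENP fell and NDC80, NUF2, MAD2L1, KIF18A and CKS1B rose. A match of letters is a description and not evidence of binding.

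Among the mitotic kinases and their partners, 4 of 6 genes fell in V2084D and 1 rose. AURKB (ENSG00000178999, chr17:8204733-8210600), the kinase of the passenger complex that corrects wrong attachments, had 73.4, 69.7 and 64.7 CPM in shSTUB1 libraries, 64.6, 65.9 and 68.9 CPM in V2084D libraries and 126, 125 and 136 CPM in WT libraries. Every V2084D library was below every WT library (log2 difference -0.95, SE 0.07, edgeR adjusted p = 3.75e-06). INCENP (ENSG00000149503, chr11:62123973-62153163), the scaffold that activates Aurora B, had 44.0, 37.6 and 53.1 CPM in shSTUB1 libraries, 73.7, 70.2 and 66.0 CPM in V2084D libraries and 133, 127 and 140.4 CPM in WT libraries. Its 3 groups were fully apart, and V2084D lay below WT (log2 difference -0.93, SE 0.11, edgeR adjusted p = 8.43e-05). PLK1 (ENSG00000166851, chr16:23677656-23690367), the Polo kinase of mitotic entry and spindle assembly, had 111, 117 and 114 CPM in shSTUB1 libraries, 124, 131 and 128 CPM in V2084D libraries and 196, 205 and 221 CPM in WT libraries. The libraries did not overlap between V2084D and WT (log2 difference -0.70, SE 0.06, edgeR adjusted p = 1.35e-05). AURKA (ENSG00000087586, chr20:56369389-56392337), the kinase of the spindle poles, had 74.5, 80.9 and 72.5 CPM in shSTUB1 libraries, 89.8, 87.2 and 87.6 CPM in V2084D libraries and 134, 130.3 and 125 CPM in WT libraries. The order was the same as for PLK1 (log2 difference -0.56, SE 0.07, edgeR adjusted p = 7.25e-05). NEK2, a centrosome kinase, rose by a log2 difference of 0.41. BIRC5, the survivin subunit of the passenger complex and the most abundant of this role, had 241, 273 and 222 CPM in shSTUB1 libraries, 232, 236 and 280.0 CPM in V2084D libraries and 257, 253 and 249 CPM in WT libraries. It did not pass the test, with a log2 difference of -0.02 (SE 0.09). CDCA8 (borealin), the fourth subunit and outside the 45, averaged 73.8 CPM in V2084D and 75.6 CPM in WT (log2 difference -0.03, SE 0.08, edgeR adjusted p = 0.765).

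The cyclins divided. CCNB1 (ENSG00000134057, chr5:69167010-69178245), cyclin B1, was the most abundant of the cyclin and CDK group, with 172, 188 and 179 CPM in shSTUB1 libraries, 173, 181 and 190.2 CPM in V2084D libraries and 311, 290.2 and 292 CPM in WT libraries. All V2084D libraries were far below the WT libraries (log2 difference -0.71, SE 0.06, edgeR adjusted p = 9.88e-06). CCNB2 (cyclin B2), the phosphatase gene CDC25B, FOXM1 and CKS2 also fell, with log2 differences of -0.34, -0.35, -0.38 and -0.25. CDK1, CCNA2 (cyclin A2) and CKS1B rose, with log2 differences of 0.48, 0.33 and 0.34. CDC25C, the phosphatase that activates CDK1, had a log2 difference of -0.03 and did not pass the test.

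In the checkpoint and APC/C group, 3 of 9 genes rose and 3 fell. MAD2L1 (ENSG00000164109, chr4:120055608-120067074), which encodes the checkpoint protein MAD2, had 217, 253 and 213 CPM in shSTUB1 libraries, 251, 268 and 256 CPM in V2084D libraries and 172, 174 and 152 CPM in WT libraries. WT libraries were below all V2084D libraries (log2 difference 0.64, SE 0.08, edgeR adjusted p = 0.00011). TTK (ENSG00000112742, chr6:80003887-80042527), the checkpoint kinase MPS1, had 70.04, 73.9 and 60.9 CPM in shSTUB1 libraries, 77.9, 88.6 and 70.9 CPM in V2084D libraries and 50.4, 51.2 and 40.4 CPM in WT libraries. It too showed no overlap between V2084D and WT (log2 difference 0.74, SE 0.12, edgeR adjusted p = 0.000475). BUB3 rose by a log2 difference of 0.21, while the checkpoint kinase gene BUB1 and the genes of the APC/C ubiquitin-conjugating enzymes, UBE2C and UBE2S, fell, with log2 differences of -0.25, -0.21 and -0.32. UBE2S was the most abundant of the role, with 336, 376 and 292 CPM in shSTUB1 libraries, 407, 341 and 464 CPM in V2084D libraries and 504, 494 and 515 CPM in WT libraries. BUB1B, CDC20 and PTTG1 (securin) did not pass the test, with log2 differences of 0.06, -0.10 and 0.10.

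Of the spindle genes, HMMR, KIF18A, KIF2C and NUSAP1 rose and DLGAP5 and KIF4A fell. HMMR (ENSG00000072571, chr5:163460203-163491945), a spindle-pole protein, had 78.8, 79.6 and 69.4 CPM in shSTUB1 libraries, 101.2, 105 and 96.6 CPM in V2084D libraries and 68.9, 70.4 and 63.1 CPM in WT libraries. V2084D was higher than WT in every library (log2 difference 0.58, SE 0.08, edgeR adjusted p = 0.000172). KIF18A, KIF2C (the microtubule-depolymerising kinesin MCAK) and NUSAP1 had log2 differences of 0.35, 0.32 and 0.19, and DLGAP5 and KIF4A of -0.41 and -0.21. TPX2, the most abundant here, had 284, 288 and 281 CPM in shSTUB1 libraries, 294, 293 and 279 CPM in V2084D libraries and 299, 306 and 296 CPM in WT libraries. TPX2 and KIF11, the bipolar kinesin Eg5, did not pass the test, with log2 differences of -0.06 and 0.08. In the central spindle and cytokinesis group, PRC1 rose while KIF20A, KIF23 and ANLN fell. PRC1 (ENSG00000198901, chr15:90966038-90995629), which bundles antiparallel microtubules, had 246, 282 and 257 CPM in shSTUB1 libraries, 334, 299.6 and 348 CPM in V2084D libraries and 180.4, 233 and 188 CPM in WT libraries. The V2084D libraries lay above the WT libraries (log2 difference 0.71, SE 0.10, edgeR adjusted p = 0.000257). KIF20A (ENSG00000112984, chr5:138178719-138187715), the kinesin MKLP2 that carries the passenger complex to the midzone, had 53.6, 47.7 and 56.6 CPM in shSTUB1 libraries, 64.1, 70.8 and 61.8 CPM in V2084D libraries and 99.97, 106 and 104 CPM in WT libraries. It fell (log2 difference -0.66, SE 0.08, edgeR adjusted p = 0.000102). ANLN (anillin) and KIF23 (MKLP1) fell, with log2 differences of -0.64 and -0.27, and KIF20B and ECT2 did not pass, with -0.11 and -0.04.

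TOP2A, the topoisomerase that untangles sister chromatids, rose by a log2 difference of 0.20, with 376, 335 and 361 CPM in shSTUB1 libraries, 399, 406 and 371 CPM in V2084D libraries and 349.9, 358 and 318 CPM in WT libraries. MKI67 fell, with a log2 difference of -0.87 and 175, 96.6 and 232 CPM in shSTUB1 libraries, 259, 248 and 189 CPM in V2084D libraries and 412, 425 and 432 CPM in WT libraries. Offsets for GC content and transcript length gave 10 genes higher and 22 lower in V2084D, in place of 15 and 20, and ended the calls of CKS1B, CKS2, BUB3, KIF18A, NUSAP1 and TOP2A. Over all 22510 genes the offsets called 10155, in place of 9443. Of the 35 called genes 23 were called under each of the 13 alternatives run, and 12 were not: BUB3 was called in 3, CKS1B and CKS2 in 4, UBE2C, UBE2S and NUSAP1 in 5, TOP2A in 6, BUB1 in 7, KIF4A in 8, KIF23 in 10, KIF18A in 11 and MKI67 in 12, the exception for MKI67 being the fit without V2084D replicate 3. Across the 45 genes the Spearman rho of the log2 difference with GC content was -0.41, and over all genes -0.14. Cell line markers moved with the same groups: of 12 markers of 293 cells the summed level was 318 to 372 CPM in shSTUB1, 383 to 424 CPM in V2084D and 802 to 831 CPM in WT, and IRS4 was 19.7, 21.7 and 15.6 CPM in V2084D, against 448, 478 and 442 CPM in WT. Without IRS4 the sum was 303 to 348 CPM in shSTUB1, 367 to 402 CPM in V2084D and 352 to 362 CPM in WT. The sum over 20 liver markers was 25.8 to 33.5 CPM in shSTUB1, 39.8 to 42.0 CPM in V2084D and 55.5 to 64.6 CPM in WT, and over 10 fibroblast and blood markers 42.2 to 45.5 CPM, 49.1 to 54.5 CPM and 41.7 to 44.1 CPM in the same groups. Among the liver markers 3 were at 0 in all shSTUB1 libraries, 2 in V2084D and 8 in WT. In V2084D against WT, 1 of 10 tested liver markers rose and 3 fell, 4 of 11 markers of 293 cells rose and 3 fell, and 5 of 6 fibroblast and blood markers rose. In shSTUB1 against V2084D the counts were 0 and 1, 0 and 4, and 1 and 1 in the same lists. The part of any of this in the differences of the mitotic genes was not tested.

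**Figure D1:**
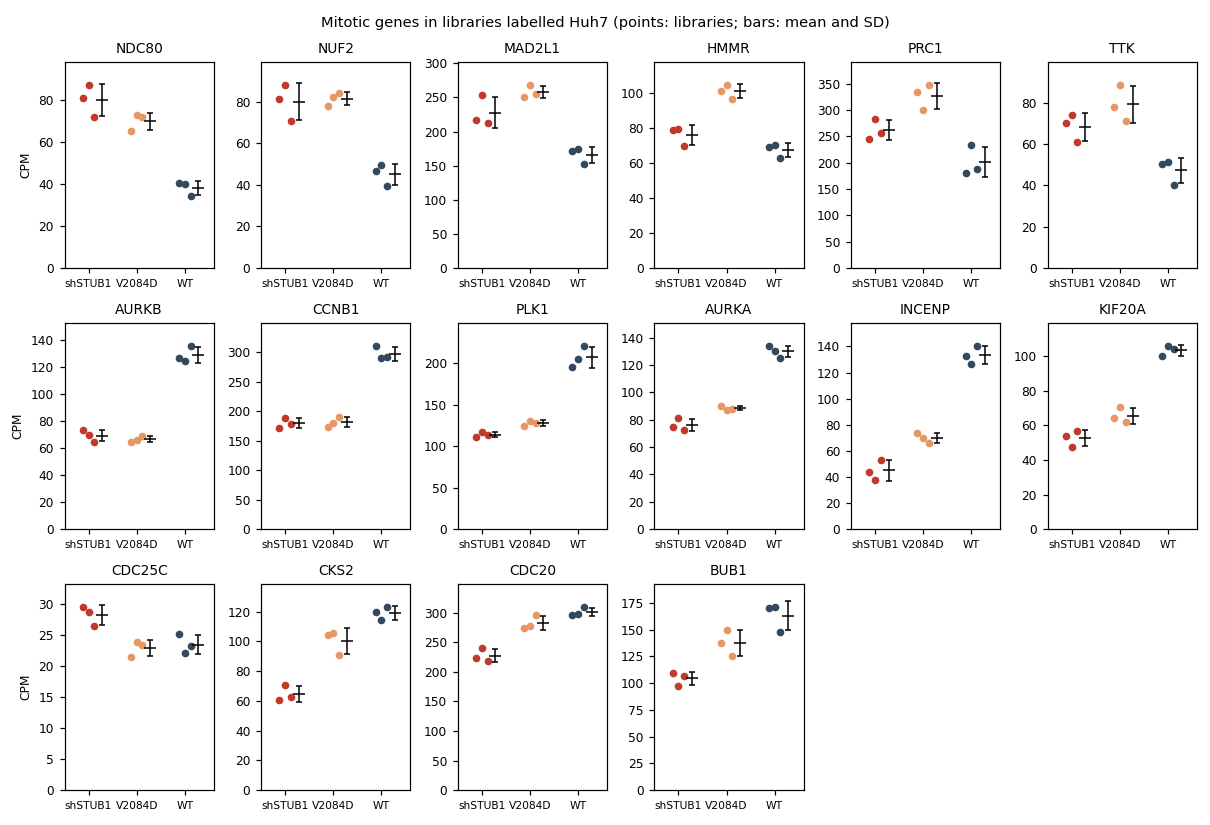
Levels in CPM (vertical axes, each from 0) of the 16 genes with full statistics in the comparisons of V2084D with WT or of shSTUB1 with V2084D, in shSTUB1, V2084D and WT libraries labelled Huh7; points are libraries and bars the mean and SD (n = 3). NDC80 and NUF2 are low in WT only, AURKB, CCNB1 and PLK1 are high in WT only, and INCENP steps down through V2084D to shSTUB1, averaging 44.9 CPM in shSTUB1, 69.9 CPM in V2084D and 133 CPM in WT.

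The knockdown of STUB1 was made only in V2084D cells, with no knockdown group in WT or KO, and the sample titles name no control hairpin. An effect on what the mutant form does thus cannot be told apart from other effects of the knockdown or its vector. Of the 45 genes, 10 fell and 1 rose in shSTUB1 relative to V2084D, and 10.8% of all genes fell and 10.8% rose. The median log2 difference of the 45 was -0.08, against -0.00 over all genes and 0.01 over those at or above the lowest level of the 45. The genes that fell were CKS2, INCENP, CDC20, HMMR, BUB1, KIF20A, UBE2C, AURKA, PRC1 and ANLN, which are spread over the roles, and the 1 that rose was CDC25C. For 10 genes that were lower and 4 that were higher the libraries did not overlap, against 18.2% and 18.3% of all genes.

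CKS2 (ENSG00000123975, chr9:89311198-89316703) had 60.7, 70.7 and 62.3 CPM in shSTUB1 libraries, 104, 106 and 90.5 CPM in V2084D libraries and 119, 114 and 123 CPM in WT libraries. All shSTUB1 libraries were below all V2084D libraries (log2 difference -0.63, SE 0.09, edgeR adjusted p = 0.000758). INCENP, whose libraries are given above, fell again, at 44.9 CPM on average in shSTUB1 and 69.9 CPM in V2084D (log2 difference -0.64, SE 0.11, edgeR adjusted p = 0.0031). CDC20 had 224, 239 and 218 CPM in shSTUB1 libraries, 273, 277 and 295 CPM in V2084D libraries and 297, 298 and 309 CPM in WT libraries. The shSTUB1 libraries of CDC20 were the lowest 3 of the 9 (log2 difference -0.31, SE 0.06, edgeR adjusted p = 0.004). HMMR, which was higher in V2084D than in WT, was lower in shSTUB1 than in V2084D (log2 difference -0.41, SE 0.08, edgeR adjusted p = 0.00461). BUB1, the kinase that recruits checkpoint proteins to kinetochores, had 109.8, 97.7 and 106 CPM in shSTUB1 libraries, 137, 149.5 and 126 CPM in V2084D libraries and 170.5, 171 and 148 CPM in WT libraries. Its shSTUB1 libraries lay under its V2084D libraries (log2 difference -0.39, SE 0.09, edgeR adjusted p = 0.00974). KIF20A fell in the same direction as in V2084D against WT (log2 difference -0.32, SE 0.08, edgeR adjusted p = 0.0204). CDC25C had 29.5, 28.6 and 26.4 CPM in shSTUB1 libraries, 21.4, 24.0 and 23.3 CPM in V2084D libraries and 25.1, 22.0 and 23.3 CPM in WT libraries. Its shSTUB1 libraries were the highest 3 of the 9 (log2 difference 0.30, SE 0.08, edgeR adjusted p = 0.0276). NDC80, NUF2, AURKB and CCNB1, which differed between V2084D and WT, did not pass the test here, with log2 differences of 0.19, -0.03, 0.06 and -0.01.

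The number of calls in this comparison moved with single libraries and with the processing. Without shSTUB1 replicate 1 it was 5, without V2084D replicate 1 it was 5 and without V2084D replicate 2 it was 7. Over all genes these fits called 3140, 2887 and 3317, in place of 4850. Without shSTUB1 replicate 2 it was 14, and 4359 over all genes. That library differed from shSTUB1 replicates 1 and 3 by 106 and 140 times the counting variance, and they differed from each other by 20.3 times. Leaving out replicate 3 of V2084D or of shSTUB1 gave 8 and 9, and 4330 and 4505 over all genes. With offsets for GC content and transcript length 3 of the 45 genes were higher and 19 lower. Over all 22510 genes the offsets called 5721, in place of 4850. In a fit of the 2 compared groups only, 7 of the 45 were called, and 3958 of all 21490 genes. CKS2, INCENP, BUB1, CDC20 and HMMR were called under each of the 13 alternatives run, leave-out fits included, and the other 6 were not: CDC25C, AURKA and PRC1 were called in 5, ANLN in 6, UBE2C in 8 and KIF20A in 10.

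Set against WT directly, shSTUB1 libraries had 13 of 45 genes higher and 21 lower, with 23.5% and 21.7% of all genes higher and lower. This comparison shares its libraries with both others and is given for the values. INCENP had the largest difference, at 44.9 CPM on average in shSTUB1 and 133 CPM in WT (log2 difference -1.57, SE 0.12, edgeR adjusted p = 2.65e-06). PLK1 (log2 difference -0.86, SE 0.06, edgeR adjusted p = 3.08e-06), AURKB (log2 difference -0.90, SE 0.07, edgeR adjusted p = 4.68e-06) and KIF20A (log2 difference -0.97, SE 0.08, edgeR adjusted p = 6.73e-06) were lower. CCNB1 (log2 difference -0.73, SE 0.06, edgeR adjusted p = 7.1e-06) and AURKA (log2 difference -0.77, SE 0.07, edgeR adjusted p = 7.13e-06) were lower as well. NDC80 was higher in shSTUB1 (log2 difference 1.06, SE 0.09, edgeR adjusted p = 7.77e-06), as were NUF2 (log2 difference 0.83, SE 0.10, edgeR adjusted p = 8.16e-05) and KIF2C (log2 difference 0.36, SE 0.05, edgeR adjusted p = 0.000255). MAD2L1 (log2 difference 0.46, SE 0.08, edgeR adjusted p = 0.000926), TTK (log2 difference 0.53, SE 0.12, edgeR adjusted p = 0.00364) and KIF18A (log2 difference 0.31, SE 0.07, edgeR adjusted p = 0.00394) completed the genes with the smallest p among those higher. KIF2C had 182, 183 and 184 CPM in shSTUB1 libraries, 179, 175 and 181 CPM in V2084D libraries and 140.3, 142 and 146 CPM in WT libraries, and KIF18A had 35.4, 38.2 and 33.5 CPM in shSTUB1 libraries, 37.2, 36.8 and 36.0 CPM in V2084D libraries and 28.6, 30.3 and 27.5 CPM in WT libraries. With offsets for GC content and transcript length, 6 genes were higher and 29 lower, and the differences of CDK1, CCNA2 and KIF18A changed sign to -0.12, -0.05 and -0.05. Over all 22510 genes the offsets called 10328, in place of 10162. In the order of the 3 group means, 19 genes had shSTUB1 lowest, V2084D between and WT highest, and 12 had WT lowest, shSTUB1 between and V2084D highest. The remaining 14 had other orders, among them 5 with V2084D lowest and WT highest and 4 with WT lowest and shSTUB1 highest.

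**Figure D2:**
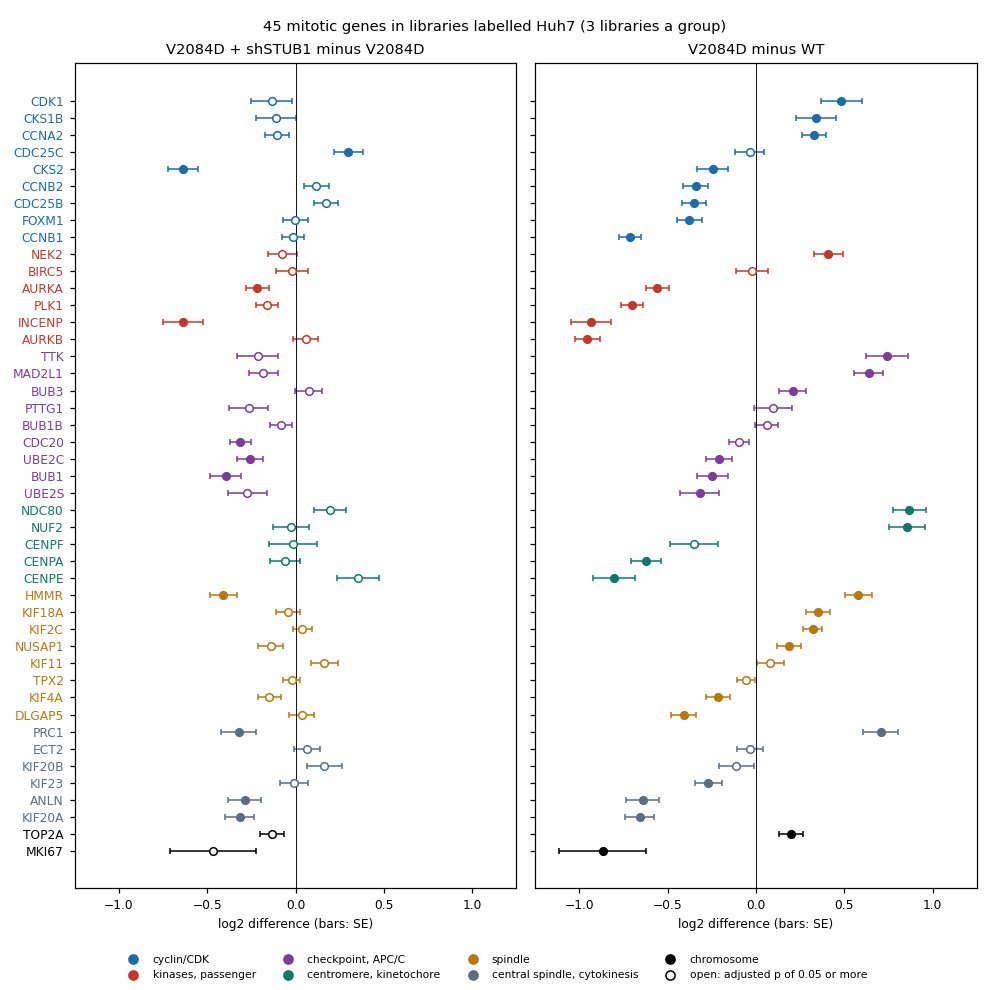
Log2 difference of each of the 45 genes (rows, coloured by role) for shSTUB1 minus V2084D on the left and V2084D minus WT on the right, in libraries labelled Huh7; bars are SE, and filled points have an adjusted p below 0.05 in edgeR's quasi-likelihood test. In V2084D minus WT 35 points are filled, on both sides of 0, and in shSTUB1 minus V2084D 11 are, 10 of them below 0.

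V2084D was also compared with WT in 293T, and a joint fit of all 27 libraries tested whether the difference was the same in the 2 sets. It differed for 8 of 45 genes, all higher in Huh7 than in 293T on the scale of V2084D minus WT, with 5.5% of all 24546 genes differing in that direction. They were KIF2C, NUF2, NDC80, MAD2L1, PRC1, NEK2, KIF18A and CCNA2. No gene of the 45 differed in the other direction, as 4.21% of all genes did, and 3 had an unadjusted p below 0.05 there, against 10.3% of all genes (11 and 13.1% in the higher direction). With offsets for GC content and transcript length 10 of the 45 were higher and 3 lower. Over all 24546 genes the offsets called 4400, in place of 2385. KIF2C had 141, 136 and 153 CPM in V2084D libraries and 182, 157 and 269 CPM in WT libraries in 293T, with a log2 difference of -0.50, and 0.32 in Huh7 (difference of the differences 0.84, SE 0.21, edgeR adjusted p = 0.012). For NUF2 the log2 difference was 0.85 in Huh7 and -0.21 in 293T (difference of the differences 1.08, SE 0.29, edgeR adjusted p = 0.0167). For NDC80 it was 0.87 in Huh7 and -0.26 in 293T (difference of the differences 1.15, SE 0.34, edgeR adjusted p = 0.0298). MAD2L1 (difference of the differences 0.81, SE 0.25, edgeR adjusted p = 0.0362), PRC1 (difference of the differences 0.80, SE 0.25, edgeR adjusted p = 0.0419) and NEK2 (difference of the differences 0.61, SE 0.19, edgeR adjusted p = 0.0461) followed. The lines are named here by label, since the libraries labelled Huh7 lacked the defining transcripts of liver cells. Both labels had their own sets of libraries, so line and library set cannot be told apart. In 293T each V2084D library had more ARID1A than WT replicates 1 and 2, and the part of this was not tested. Without 293T WT replicate 3 the count was 3, with 1 gene higher, which was among the 8, and 2 lower. The median over the 45 was 0.14 with all libraries and -0.07 without that library. The count was 1 without 293T V2084D replicate 1 or without Huh7 WT replicate 3. Over all genes these 2 fits called 1713 and 1673, and the fit without 293T WT replicate 3 called 2137, in place of 2385. Of the 8, KIF2C was called under each of the 18 alternatives run and the other 7 were not, NUF2 in 14, NDC80 in 10, MAD2L1 in 8, PRC1 in 7, NEK2 and KIF18A in 6 and CCNA2 in 5.

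**Figure D3:**
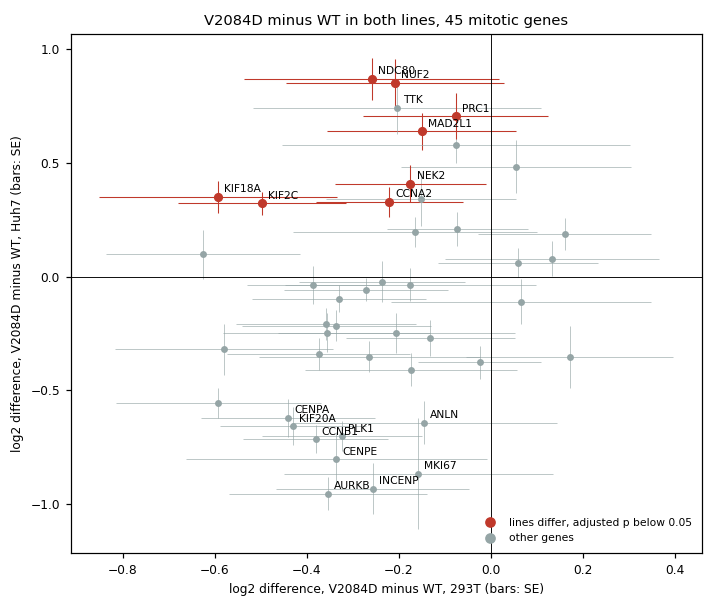
Log2 difference of V2084D minus WT for the 45 genes in libraries labelled 293T (horizontal axis) and Huh7 (vertical axis), each from the fit of its own line; bars are SE, and red points are the 8 genes whose difference differed between the lines in the joint fit. The red points lie above 0 in Huh7 and below 0 in 293T, from -0.08 for PRC1 to -0.59 for KIF18A.

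In 293T, putting wild-type ARID1A back gave no gene of the 45 that passed the test, and none of the 23201 genes tested did so (0%). With DESeq2, CENPA was the only 1 of the 45 called, and 70 of all 23201 genes were called. The values of WT lay mostly above those of KO: 41 of 45 had a positive log2 difference, the median was 0.35 against 0.01 over all genes (0.09 over those at or above the lowest level of the 45), and 18 had an unadjusted p below 0.05 in that direction, where 6.52% of all genes had (4.44% in the other direction, with none of the 45). Libraries did not overlap for 18 genes, all higher in WT, against 8.93% of all genes, and 8.59% were lower. CENPA had 42.0, 34.7 and 47.5 CPM in WT libraries and 25.0, 23.2 and 25.4 CPM in KO libraries. CENPA was not called (log2 difference 0.75, SE 0.19, edgeR unadjusted p = 0.000837, adjusted p = 0.343). PTTG1 had 104, 69.9 and 123 CPM in WT libraries and 61.7, 52.7 and 53.0 CPM in KO libraries, with no overlap but no call (log2 difference 0.83, SE 0.21, edgeR unadjusted p = 0.000964, adjusted p = 0.343). UBE2S had 393, 289 and 359 CPM in WT libraries and 175, 155 and 217 CPM in KO libraries, likewise apart and not called (log2 difference 0.93, SE 0.24, edgeR unadjusted p = 0.00104, adjusted p = 0.343). WT replicate 3, which also had the highest ARID1A of the 3 WT libraries (62916 CPM, against 5690 and 9285 CPM in replicates 1 and 2), held the highest level of 23 of the 45 genes among all 18 libraries. Without it the median was 0.16 and 29 of 45 differences were positive. With all 3 WT libraries the Spearman rho of the 45 differences was -0.51 with transcript length and 0.50 with GC content, and over all genes -0.18 and 0.26. Offsets for GC content and transcript length gave 0 calls as well, and the part of ARID1A level in these values was not tested.

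The mutant forms V2084D, G2087E and G2087R were each set against KO. None of the 45 genes and 0% of all genes passed the test in any of these comparisons. DESeq2 also called none of the 45, and it called 28, 37 and 25 of all 23201 genes in turn. At an unadjusted p below 0.05 none of the 45 passed in V2084D, where 2.65% of all genes were higher and 2.18% lower. There was 1 higher in G2087E (FOXM1), with 3.1% of all genes higher and 2.56% lower, and 1 lower in G2087R (KIF18A), with 2.36% higher and 1.96% lower. The medians over the 45 were 0.14 for V2084D, 0.12 for G2087E and -0.04 for G2087R, with 0.01, 0.00 and 0.01 over all genes and 0.08, 0.08 and 0.06 over those at or above the lowest level of the 45. Without KO replicate 3 they were 0.06 for V2084D and 0.07 for G2087E, without V2084D replicate 2 0.07 for V2084D, and without G2087E replicate 3 0.04 for G2087E. Without the 2 G2087R libraries near the KO level of ARID1A, the G2087R median was 0.18, and without KO replicate 1 it was 0.03. FOXM1, the transcription factor of late cell cycle genes, was among the 3 genes with the smallest p in all 3 comparisons, which share the KO libraries. For V2084D against KO, FOXM1 had 237, 213 and 262 CPM in V2084D libraries and 191, 187 and 211 CPM in KO libraries (log2 difference 0.27, SE 0.13, edgeR unadjusted p = 0.0555, adjusted p = 0.989). CKS1B had 175, 151 and 177 CPM in V2084D libraries and 136, 131 and 111 CPM in KO libraries (log2 difference 0.42, SE 0.21, edgeR unadjusted p = 0.059, adjusted p = 0.989). UBE2C had 123, 107 and 131 CPM in V2084D libraries and 93.9, 96.5 and 88.2 CPM in KO libraries (log2 difference 0.37, SE 0.20, edgeR unadjusted p = 0.0729, adjusted p = 0.989).

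In G2087E, the values of FOXM1 were above all those of KO, as were those of CKS2 and CKS1B, but no call was made. FOXM1 had 238, 240.1 and 253 CPM in G2087E libraries and 191, 187 and 211 CPM in KO libraries (log2 difference 0.31, SE 0.13, edgeR unadjusted p = 0.032, adjusted p = 0.856). CKS2 had 89.5, 76.5 and 98.7 CPM in G2087E libraries and 65.7, 64.3 and 64.0 CPM in KO libraries (log2 difference 0.45, SE 0.23, edgeR unadjusted p = 0.0618, adjusted p = 0.86). CKS1B had 153, 147 and 197 CPM in G2087E libraries and 136, 131 and 111 CPM in KO libraries (log2 difference 0.39, SE 0.21, edgeR unadjusted p = 0.0716, adjusted p = 0.86). In G2087R, the direction was lower for KIF18A and NEK2 and higher for FOXM1, again with no call. KIF18A had 17.1, 18.4 and 26.7 CPM in G2087R libraries and 33.4, 30.7 and 29.8 CPM in KO libraries (log2 difference -0.59, SE 0.26, edgeR unadjusted p = 0.0333, adjusted p = 0.973). FOXM1 had 213, 230.4 and 232 CPM in G2087R libraries and 191, 187 and 211 CPM in KO libraries (log2 difference 0.20, SE 0.13, edgeR unadjusted p = 0.156, adjusted p = 0.973). NEK2 had 48.2, 46.7 and 57.0 CPM in G2087R libraries and 66.0, 62.5 and 51.0 CPM in KO libraries (log2 difference -0.24, SE 0.16, edgeR unadjusted p = 0.161, adjusted p = 0.973).

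K2025E had calls against KO, and whether it differed from the other mutants was not tested: 14 of 45 genes rose and none fell, where 7.17% of all genes rose and 5.72% fell. Libraries did not overlap for 19 genes, all higher in K2025E, against 16% of all genes higher and 14.4% lower. The genes that rose were the ubiquitin-conjugating enzymes UBE2S and UBE2C, securin (PTTG1), CDC20, survivin (BIRC5), AURKB, PLK1, CENPA, KIF2C, the cyclins CCNB1 and CCNB2, CDC25C, CKS1B and CKS2. They include 5 of 9 in the cyclin and CDK group, 4 of 9 in the checkpoint and APC/C group and 3 of 6 kinases and passengers, and none in the central spindle and cytokinesis group. PTTG1, whose product holds back separase, had 92.5, 142 and 160.1 CPM in K2025E libraries and 61.7, 52.7 and 53.0 CPM in KO libraries. K2025E libraries lay above KO libraries (log2 difference 1.24, SE 0.21, edgeR adjusted p = 0.00674). UBE2S had 292, 556 and 575 CPM in K2025E libraries and 175, 155 and 217 CPM in KO libraries. Here replicate 1 was well below the other K2025E libraries (log2 difference 1.38, SE 0.24, edgeR adjusted p = 0.00674). UBE2C had 133, 191 and 250.1 CPM in K2025E libraries and 93.9, 96.5 and 88.2 CPM in KO libraries (log2 difference 1.04, SE 0.20, edgeR adjusted p = 0.00674). BIRC5 had 327, 452 and 484 CPM in K2025E libraries and 223, 228 and 207 CPM in KO libraries (log2 difference 0.94, SE 0.18, edgeR adjusted p = 0.00674). In both, K2025E replicate 1 again lay nearest to KO. CKS1B had 177, 246 and 294 CPM in K2025E libraries and 136, 131 and 111 CPM in KO libraries (log2 difference 0.93, SE 0.21, edgeR adjusted p = 0.0103). CCNB1 had 299, 307 and 380.3 CPM in K2025E libraries and 227, 217 and 177 CPM in KO libraries (log2 difference 0.67, SE 0.16, edgeR adjusted p = 0.0128).

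The differences of the 45 genes in K2025E moved with transcript length and with GC content. Across the genes, which are not independent replicates, the Spearman rho of the log2 difference with the longest transcript was -0.74, and it was -0.30 over all genes with a known length. With GC content it was 0.62 over the 45 and 0.34 over all genes. The median log2 difference of the 45 was 0.24, against -0.02 over all genes and 0.06 over those at or above the lowest level of the 45. The 15 genes of shortest transcript (up to 2409 bases) had a median log2 difference of 0.67, with 9 called higher. The 15 of longest transcript (3725 bases and more) had a median of -0.06, with 1 called higher. CENPF, CENPE and MKI67, which have the longest transcripts, had log2 differences of -0.63, -0.15 and -0.41, none of which passed the test. ANLN had 130.1, 52.4 and 84.5 CPM in K2025E libraries and 124, 118 and 114 CPM in KO libraries, and CENPF had 293, 158 and 197 CPM in K2025E libraries and 366, 354 and 283 CPM in KO libraries, with the lowest values in replicate 2. Without K2025E replicate 2 no gene of the 45 was called, and without K2025E replicate 3 the count was 4. Without KO replicate 1 or 2 the counts were 7 and 6. Over all genes these fits called 1, 618, 1078 and 951 in turn, in place of 2989. With offsets for GC content and length 11 were called, 10 of them among the 14, and none of the 14 was called under each of the 15 alternatives run. Over all 23201 genes the offsets called 2523, in place of 2989. Summed markers of 293 cells were 409 to 580 CPM in K2025E and 723 to 750 CPM in KO, and 3 of 10 tested fell. Without IRS4 the sums were 321 to 355 CPM in K2025E and 413 to 482 CPM in KO. Summed liver markers were 35.2 to 47.9 CPM in K2025E and 51.5 to 67.0 CPM in KO (1 of 9 fell), and fibroblast and blood markers 47.7 to 62.2 CPM and 43.8 to 67.5 CPM in the same groups (none of 8 changed). Their part in the result was not tested.

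**Figure D4:**
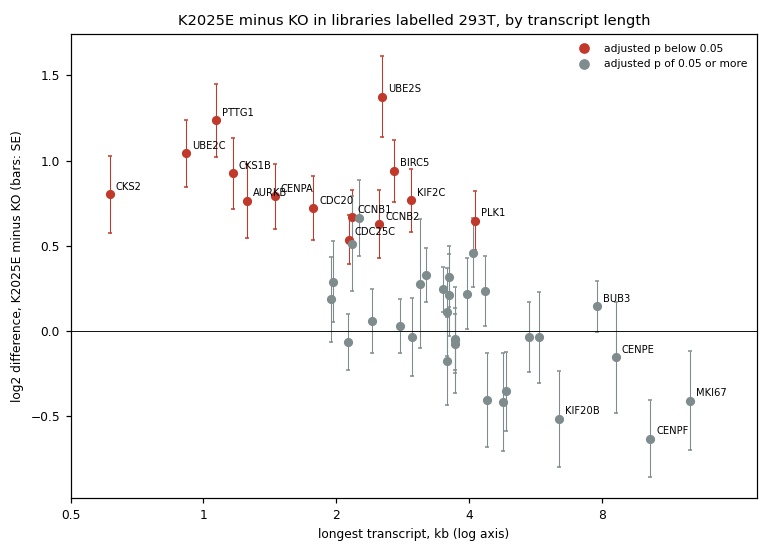
Log2 difference of K2025E minus KO for the 45 genes in libraries labelled 293T (vertical axis) against the longest annotated transcript in kilobases (horizontal log axis); bars are SE, and red points have an adjusted p below 0.05 in edgeR's quasi-likelihood test. The 14 red points lie toward the short end, with PLK1 the longest transcript among them, and the 3 longest transcripts lie below 0.

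Against WT in 293T, none of the 45 genes passed the test in any mutant, and DESeq2 called none of the 45 either. Of all 23201 genes DESeq2 called 14 in V2084D, 16 in G2087E, 26 in G2087R and 21 in K2025E. G2087R and WT met the rule by which same-numbered libraries count as pairs. With the replicate number as a block none of the 45 was called, and 1 of all 23201 genes was. With the block and offsets for GC content and transcript length 6 of the 45 were lower, and 71 of all 23201 genes were called in either direction. The 6 included KIF20A (log2 difference -0.56, edgeR adjusted p = 0.0143) and KIF18A (log2 difference -0.81, edgeR adjusted p = 0.0197). Without block or offsets, the share of all genes called was 0% in V2084D and G2087E, and in G2087R and K2025E 0.00431% were lower and 0% higher. At an unadjusted p below 0.05, 9 of the 45 were lower in V2084D, 8 in G2087E, 21 in G2087R and 2 in K2025E, with 1.1%, 1.2%, 2.34% and 4.97% of all genes, and none was higher, as 0.914%, 0.849%, 2.11% and 3.31% of all genes were. Median log2 differences were -0.22, -0.28, -0.41 and -0.08, against -0.01, -0.01, -0.00 and -0.01 over all genes. These 4 comparisons share the WT libraries, and without WT replicate 3, the WT library with the most ARID1A, the medians were -0.06, -0.09, -0.21 and 0.11. Each library of V2084D, G2087E and K2025E had more ARID1A than WT replicates 1 and 2, and the part of ARID1A level was not tested. Without G2087R replicates 1 and 2 the G2087R median was -0.14. PTTG1 had 67.6, 61.0 and 63.9 CPM in V2084D libraries and 104, 69.9 and 123 CPM in WT libraries (log2 difference -0.62, SE 0.21, edgeR unadjusted p = 0.00805, adjusted p = 1). KIF2C had 141, 136 and 153 CPM in V2084D libraries and 182, 157 and 269 CPM in WT libraries (log2 difference -0.50, SE 0.18, edgeR unadjusted p = 0.014, adjusted p = 1). KIF20A had 81.6, 73.0 and 84.8 CPM in V2084D libraries and 93.5, 99.6 and 129 CPM in WT libraries (log2 difference -0.43, SE 0.16, edgeR unadjusted p = 0.0143, adjusted p = 1).

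In G2087E against WT, the 3 smallest p belonged to AURKA, PTTG1 and KIF20A, and WT replicate 3 was the highest of the 6 libraries in each. AURKA had 109, 114 and 122 CPM in G2087E libraries and 151, 129 and 282 CPM in WT libraries (log2 difference -0.70, SE 0.22, edgeR unadjusted p = 0.00533, adjusted p = 1). PTTG1 had 58.0, 58.4 and 71.1 CPM in G2087E libraries and 104, 69.9 and 123 CPM in WT libraries (log2 difference -0.66, SE 0.21, edgeR unadjusted p = 0.00538, adjusted p = 1). KIF20A had 74.8, 72.3 and 83.2 CPM in G2087E libraries and 93.5, 99.6 and 129 CPM in WT libraries (log2 difference -0.49, SE 0.16, edgeR unadjusted p = 0.00661, adjusted p = 1). In G2087R, where 2 libraries had ARID1A near the KO level, KIF20A and AURKA were again among the 3. KIF20A had 73.0, 64.3 and 78.1 CPM in G2087R libraries and 93.5, 99.6 and 129 CPM in WT libraries (log2 difference -0.58, SE 0.16, edgeR unadjusted p = 0.00172, adjusted p = 0.981). KIF18A had 17.1, 18.4 and 26.7 CPM in G2087R libraries and 31.9, 30.3 and 53.2 CPM in WT libraries (log2 difference -0.89, SE 0.26, edgeR unadjusted p = 0.00283, adjusted p = 0.981). AURKA had 108, 104 and 119 CPM in G2087R libraries and 151, 129 and 282 CPM in WT libraries (log2 difference -0.76, SE 0.22, edgeR unadjusted p = 0.00295, adjusted p = 0.981). In K2025E, MKI67 and ANLN were lower and BIRC5 higher, with overlapping libraries in each. MKI67 had 279, 166 and 236 CPM in K2025E libraries and 181, 336 and 593 CPM in WT libraries (log2 difference -0.70, SE 0.29, edgeR unadjusted p = 0.0273, adjusted p = 0.601). ANLN had 130.1, 52.4 and 84.5 CPM in K2025E libraries and 104, 112 and 203 CPM in WT libraries (log2 difference -0.65, SE 0.29, edgeR unadjusted p = 0.0365, adjusted p = 0.601). BIRC5 had 327, 452 and 484 CPM in K2025E libraries and 337, 255 and 381 CPM in WT libraries (log2 difference 0.38, SE 0.18, edgeR unadjusted p = 0.0522, adjusted p = 0.601).

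By mean CPM the most abundant transcript of each role was the same in both lines, but for the checkpoint and APC/C role in 293T the order depended on the measure: UBE2S averaged 279 CPM over the 18 libraries and CDC20 276 CPM, while the medians were 243 and 274 CPM. In 293T, TOP2A had 398, 255 and 388 CPM in K2025E, 291, 257 and 407 CPM in G2087R, 291, 329 and 390.1 CPM in G2087E, 341, 433 and 325 CPM in V2084D, 295, 309 and 627 CPM in WT and 409, 378 and 280.2 CPM in KO. WT replicate 3 was the highest of the 18. TPX2 had 315, 273 and 357 CPM in K2025E, 226, 226 and 297 CPM in G2087R, 252, 266 and 308 CPM in G2087E, 283, 299 and 283 CPM in V2084D, 308, 274 and 462 CPM in WT and 267, 249 and 241 CPM in KO, with the same library on top. PRC1 had 217, 241 and 299 CPM in K2025E, 188, 144 and 256 CPM in G2087R, 194, 202 and 266 CPM in G2087E, 213, 211 and 248 CPM in V2084D, 278, 191 and 241 CPM in WT and 190.2, 196 and 164 CPM in KO, where K2025E replicate 3 was the highest. CENPF had 293, 158 and 197 CPM in K2025E, 267, 249 and 344 CPM in G2087R, 266, 292 and 311 CPM in G2087E, 298, 389 and 275 CPM in V2084D, 216, 273 and 366 CPM in WT and 366, 354 and 283 CPM in KO. The lowest CENPF values were those of K2025E replicates 2 and 3. In the G2087R, G2087E and V2084D libraries, CCNB1 had 216, 198 and 248 CPM, 234, 219 and 254 CPM and 249, 237 and 224 CPM in turn, and 313, 251 and 361 CPM in WT. BIRC5 had 222, 215 and 296 CPM in G2087R, 245, 245 and 312 CPM in G2087E, 286, 256 and 285 CPM in V2084D and 337, 255 and 381 CPM in WT. UBE2S had 225, 228 and 191 CPM in G2087R, 244, 185 and 242 CPM in G2087E and 259.8, 164 and 272 CPM in V2084D. KO values of these 3 genes stand beside K2025E above.

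**Figure D5:**
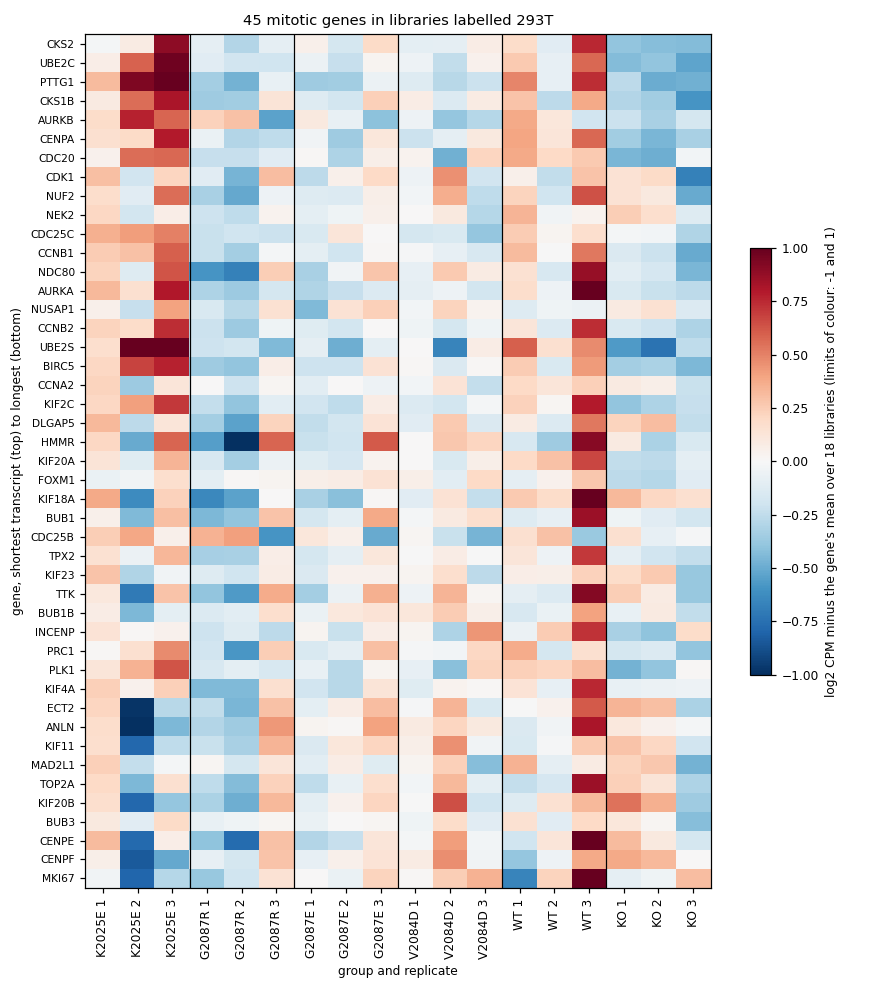
Log2 CPM of the 45 genes minus each gene's mean over the 18 libraries labelled 293T, with libraries in columns (groups K2025E, G2087R, G2087E, V2084D, WT and KO, replicates 1 to 3) and genes in rows from the shortest transcript at the top to the longest at the bottom. WT replicate 3 is high in most rows, and K2025E replicate 2 is high in the top rows and low in the bottom rows.

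Other cell cycle genes, from lists that hold none of the 45, give the setting in the libraries labelled Huh7. As above, 22% of all genes rose and 20% fell in V2084D against WT, 10.8% rose and 10.8% fell in shSTUB1 against V2084D, and 7.17% rose and 5.72% fell in K2025E against KO. Of 70 further mitosis genes, 12 rose and 30 fell in V2084D against WT, with a median log2 difference of -0.19. Those with the smallest p were FAM83D (-1.21), which recruits casein kinase to the spindle, the kinesin KIF18B (-1.08), TROAP (-0.92) and TRIP13 (-0.74), a checkpoint ATPase. In shSTUB1 against V2084D, 14 of the 70 rose and 12 fell, and CEP55 (-0.74), TACC3 (-0.44), KIFC1 (-0.40) and SPAG5 (-0.47) had the smallest p. Of 39 replication and G1/S genes, 13 rose and 12 fell in V2084D against WT, and GINS3 (-1.35), E2F2 (0.94), RRM2 (-1.08) and UHRF1 (-0.79) had the smallest p. In shSTUB1 against V2084D, 15 of the 39 rose and 3 fell, and GINS3 (1.01), CDC45 (0.46), RFC3 (0.50) and RRM2 (0.43) had the smallest p. Parenthesised values are log2 differences.

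Of 15 APC/C subunit genes, 3 rose and 7 fell in V2084D against WT, among them ANAPC15 (-0.90), ANAPC7 (-0.76), ANAPC2 (-0.62) and ANAPC16 (0.75), and 4 rose and none fell in shSTUB1 against V2084D. Of 8 condensin genes, 2 rose and 5 fell in V2084D, with NCAPH2 at -0.86, NCAPH at -0.36, NCAPD3 at -0.38 and SMC4 at 0.34, and 1 rose and 1 fell in shSTUB1. Of 12 genes of DREAM and MuvB, 6 rose and 2 fell in V2084D, with the E2F partner TFDP2 at 1.12 the histone chaperone RBBP4 at 0.61, LIN52 at 0.65 and TFDP1 at -0.34, and 2 rose and none fell in shSTUB1. Of 7 CDK inhibitor genes, 2 rose and 1 fell in V2084D, with CDKN1C at 1.20, CDKN1B at 0.36 and CDKN2A at -0.66. In shSTUB1 against V2084D none of the 7 rose and 4 fell, among them CDKN1A at -0.91. In K2025E against KO in 293T, 13 of the 70 mitosis genes rose and 2 fell, 8 of 39 replication genes rose and none fell, and 4 of 15 APC/C genes rose and none fell. In the same comparison, 1 of 8 condensin genes rose, 2 of 12 DREAM and MuvB genes fell, and of 7 CDK inhibitor genes 1 rose and 1 fell.

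Some counts may include reads of other genes. Exons of 17 of the 45 genes overlap another annotated gene, on the opposite strand for 14 and on the same strand for 4 (BUB1B, CENPA, NUSAP1 and PRC1). Whether the counting used strand is not given in the sources used here, so that reads of NUF2 and RGS5, of KIF20A and BRD8 or CDC23, and of PLK1 and ERN2 cannot be told apart where they overlap. Named pseudogenes exist for 11 of the 45, with 6 for CKS1B, 4 for UBE2C and 2 each for AURKA, UBE2S and NEK2, and the levels of these genes are uncertain to that extent.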

How the data were processed

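RNA was sequenced from 27 libraries. The authors deposited whole-number read counts for each gene, and per the labels' protocols total RNA came from a Trizol and miRNeasy extraction and went into NEBNext Ultra II libraries. GRCh38 and edgeR are named in the submitters' processing notes, without an edgeR version. Aligner, annotation and strand setting are not given in the sources used here. Every column matched a sample.

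The quasi-likelihood test of edgeR 4.0.16, run in R 4.3.3 with TMM scaling, compared the counts, with all groups of a line in 1 fit, and all 27 libraries in 1 fit for the difference between lines. filterByExpr (minimum count 10, minimum total 15) left 23201 genes to test in the 293T libraries, 22510 in the Huh7 libraries and 24546 where both were joined. The common biological coefficient of variation was 30.9%, 24.8% and 30.3%, so that spread between libraries and not depth sets the precision. Calls needed an adjusted p (Benjamini-Hochberg, across every gene tested) under 0.05. SE was taken from the F statistic, as the size of the log2 difference over its root. Replicate libraries differed by 11.3 to 323 times the counting variance, so no library was a repeat of another.

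The 45 genes and the other lists were chosen with earlier results of these data known. Full statistics are given for up to 6 called genes in each direction with the smallest p, or for the 3 with the smallest p where none was called. Levels in every library are given for these and for the most abundant gene of each role. Of the other lists only called genes are named. SPC24, SPC25, CDCA8 and IRS4 were chosen after their values were seen.

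Other settings tried were DESeq2 1.42.0, size factors by RLE, a fit with no low-count filter, the replicate number as a block, offsets for GC content and transcript length, these with the block, only the compared groups, and leaving out libraries. Replicate numbers counted as pairs where deviations of same-numbered libraries correlated above 0.1 in every pair. This held only for G2087R against WT, at 0.13, 0.18 and 0.32, as seen in the data. It does not show that replicate numbers share nothing elsewhere, since replicate 3 stood apart in every 293T group, as given above. Lengths came from GENCODE on GRCh38 and promoter windows from RefSeq. The fit was also run on simulated counts with known folds. These were drawn without the dependence on transcript length seen in some libraries, so they do not test its part in the calls.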

Additional observations from a re-analysis of the deposited data

Results flagged for a closer look

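For 8 genes the difference of V2084D minus WT itself differed between the libraries labelled Huh7 and those labelled 293T, by a contrast of the 2 differences in edgeR's quasi-likelihood test on all 27 libraries. On the log2 scale the contrast was 1.15 for NDC80, 1.08 for NUF2, 0.96 for KIF18A, 0.84 for KIF2C, 0.81 for MAD2L1, 0.80 for PRC1, 0.61 for NEK2 and 0.57 for CCNA2. The adjusted p ran from 0.012 for KIF2C to 0.0486 for KIF18A. Each of the 8 was higher in V2084D than in WT in Huh7, where the differences ran from 0.32 to 0.87, and lower in 293T, where none of the 8 was called. Without 293T WT replicate 3 the contrast was called higher for 1 of the 8, and lower for 2 genes of the 45.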

How the results depend on the processing

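The counts of called genes were recomputed under each alternative. With offsets for GC content and transcript length together with the replicate block, 12 genes were called for WT against KO, 23 for K2025E against KO, 6 for G2087R against WT, 18 for shSTUB1 against V2084D and 16 for the difference between lines. Over all genes tested the same fits called 311, 4165, 71, 4836 and 5080 in turn. With the offsets alone 22 were called for shSTUB1 against V2084D and 13 for the difference between lines, and 5721 and 4400 over all genes. RLE size factors and no filter each gave 4 for the difference between lines, and 2394 and 1723 over all genes. DESeq2 called 1 gene for WT against KO. A fit of the compared groups only gave 4 for K2025E against KO and 7 for shSTUB1 against V2084D, and without K2025E replicates 2 and 3 no gene was called for K2025E against KO. With the replicate number as a block the counts were 15 for K2025E against KO, 29 for V2084D against WT in Huh7, 7 for shSTUB1 against V2084D, 33 for shSTUB1 against WT and 7 for the difference between lines, and 0 in the other comparisons. Over all genes the block called 3605, 8750, 3992, 9411 and 2579 in turn, and 0 to 2 in the other comparisons. Signs changed for CDK1 (-0.12), CCNA2 (-0.049) and KIF18A (-0.053) in shSTUB1 against WT with the offsets, and to the same values with the block added.

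Leaving out 1 library gave counts from 0 to 17 for K2025E against KO, 0 to 1 for K2025E against WT, 25 to 29 for V2084D against WT in Huh7, 5 to 14 for shSTUB1 against V2084D, 28 to 35 for shSTUB1 against WT and 1 to 8 for the difference between lines. Over all genes the same fits called 1 to 5270, 0 to 1048, 8030 to 8675, 2887 to 4505, 8724 to 9751 and 1673 to 2236 in turn. For the difference between lines the count was 4 without 293T WT replicate 1, 2 without 293T V2084D replicate 3, Huh7 WT replicate 1 or Huh7 V2084D replicate 2 or 3, and 3 without Huh7 WT replicate 2 or Huh7 V2084D replicate 1. Of the leave-out results for single genes, 606 kept direction and side of the threshold, 197 were no longer past it, 1 came past it and none changed sign. Of the other alternatives for single genes, 841 results kept direction and side of the threshold, 97 were no longer past it, 6 came past it and 6 changed sign. Where causes of these changes were not shown by the alternative's own construction, the cause was not tested. The spread between 3 libraries a group, and not depth, limits these comparisons.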
